A study of Mus musculus with 19 samples.

Results

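TRBV1, formerly called Vβ2, is a variable segment of the mouse T cell receptor beta chain, and its usage was read here in BALB/c mice, in 19 libraries made from CD4+ T cells sorted after surgery or immunisation. Its members were all entries whose V segment was named exactly TRBV1, which makes 1 of the 22 TRBV segments listed. These entries carried 8.30% of all reads and 95748 distinct CDR3 amino acid sequences. An entry is a combination of a CDR3, a TRBV segment and a TRBJ segment with its number of reads. The CDR3 is the loop of the receptor that lies over the antigen peptide.

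The mice had surgery or an injection under the skin, and cells were taken at day 7. Infarction was made by ligating the left anterior descending coronary artery, and CD4+ TCRβ+ cells were sorted from mediastinal lymph nodes, which drain the heart (MI node, n = 3), and from the infarcted heart (n = 3). Sham-operated mice had a thoracotomy without ligation, and their mediastinal nodes were the surgical control (sham node, n = 4). Axillary nodes came from mice given the adjuvant Titermax Gold alone (adjuvant node, n = 4), the adjuvant with 100 µg of porcine cardiac myosin (myosin node, n = 2), or the adjuvant with 1 mg of mouse heart protein extract (heart extract node, n = 3). Per the labels, 500000 sorted cells went into each node library and 5000 into each heart library. Age and sex are not in the labels, and the labels leave unsaid whether each library is a separate animal. P-values therefore cover only the variation among the libraries, which may be technical. The volume of adjuvant given with the antigens is not assigned to libraries and could differ from that of the control, so antigen and volume cannot be told apart. Only TRB transcripts were amplified, so no marker of another cell type could be read.

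A beta chain is made in the thymus when 1 of many V segments is joined to a D and a J segment, and bases are lost and added at the joints. TRBV1 lies at the 5′ end of the V segments of the locus on mouse chromosome 6, and in RefSeq it is separated from the next V segment by genes that are no part of the receptor, among them the protease gene Prss58. The J segments lie in the TRBJ1 and TRBJ2 clusters, each behind its own D segment. The germline end of TRBV1 encodes a second cysteine shortly after the conserved cysteine at which every CDR3 starts, a feature that most V segments lack. V segment usage in CD4+ T cells is set by how often a segment rearranges, by selection in the thymus and by the growth of clones after antigen.

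CDR3s are printed here as the tables give them, without the conserved first cysteine and the closing phenylalanine. The following 4 TRBV1 CDR3s are shown because they were the TRBV1 CDR3s listed in every node library, and none of them was listed in a heart.
TRBJ1-3, 12 residues: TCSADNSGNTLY
TRBJ2-7, 10 residues: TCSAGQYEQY
TRBJ1-1, 12 residues: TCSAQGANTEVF
TRBJ2-7, 10 residues: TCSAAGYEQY

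The next 9 are shown because they were the 3 most abundant TRBV1 CDR3s of each infarcted heart, named by heart and rank.
heart 1, rank 1, TRBJ1-4: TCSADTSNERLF
heart 1, rank 2, TRBJ2-4: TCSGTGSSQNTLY
heart 1, rank 3, TRBJ2-4: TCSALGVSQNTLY
heart 2, rank 1, TRBJ2-3: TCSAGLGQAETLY
heart 2, rank 2, TRBJ2-2: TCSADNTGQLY
heart 2, rank 3, TRBJ2-2: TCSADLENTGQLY
heart 3, rank 1, TRBJ1-1: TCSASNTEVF
heart 3, rank 2, TRBJ1-4: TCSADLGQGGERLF
heart 3, rank 3, TRBJ1-4: TCRGTGGSERLF

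Read totals ran from 7534295 to 9235800 in the nodes and from 2426715 to 5126910 in the hearts, and TRBV1 had between 604404 and 787448 reads in a node and 170125, 388563 and 393249 reads in the hearts. The reads are PCR products without molecular identifiers, so intervals and detection limits below cover counting error only. In sham node 4, adjuvant node 3 and heart extract node 3 the median TRBV1 entry had 8, 5 and 4 reads, against 23 to 60 in the other 13 nodes. These 3 libraries were also left out in turn.

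TRBV1 was a common segment with a narrow range. It took 8.33% ± 0.447 of the reads of a node (SD, n = 16), rank 5 of 22 after TRBV19, TRBV5, TRBV14 and TRBV4, and 7.84% ± 0.922 of the reads of a heart (SD, n = 3). The MI nodes held 9.02%, 8.97% and 8.60%, and the sham nodes 8.93%, 8.98%, 8.18% and 8.28%. The heart extract nodes held 7.96%, 8.25% and 8.43%, the myosin nodes 8.05% and 8.02%, and the adjuvant nodes 8.07%, 7.61%, 7.78% and 8.21%. The hearts held 7.01%, 8.83% and 7.67%. The MI and sham ranges overlapped, as did the ranges of the axillary groups, and the hearts spread more widely than any node group. TRBV1 ranked 4 of 22 in each of the 7 mediastinal nodes and in each heart, and 5 in each of the 9 axillary nodes.

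**Figure D1:**
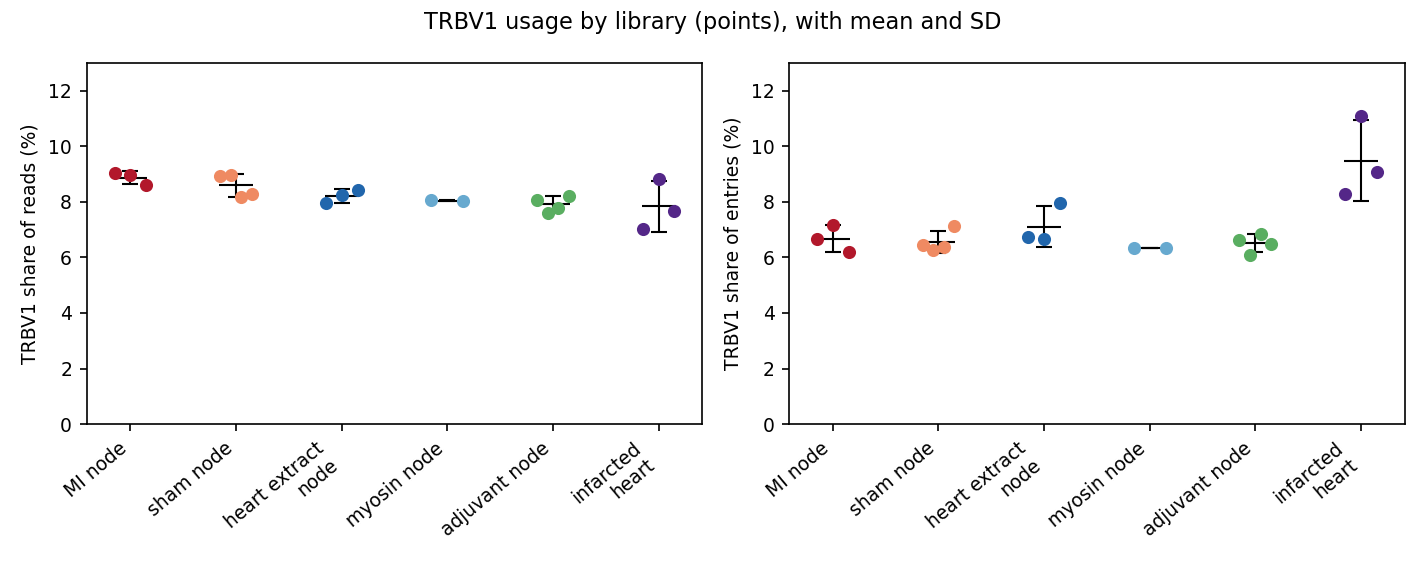
Share of reads (left) and share of entries (right) that carried TRBV1, in percent, with 1 point per library and the mean and SD of each group. By reads the hearts lie lowest on average at 7.84%, and by entries they lie highest at 9.48%.

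By mean read share the order was MI node, sham node, heart extract node, myosin node, adjuvant node and heart. Neighbouring node groups in this order did not pass the test of edgeR (quasi-likelihood, library total as offset, Benjamini-Hochberg adjustment over the 22 segments at 0.05). The infarct question, MI against sham node, gave a difference of 0.05 on the log2 scale (95% interval −0.04 to 0.13, SE 0.0394, adjusted p = 0.976), where the percentage of segments passing was 0 by edgeR and no segment had an unadjusted p under 0.05. DESeq2 also called 0. Sham against heart extract node gave 0.07 (adjusted p = 0.249) and myosin against heart extract node −0.03 (adjusted p = 0.860).

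The antigen comparisons share the adjuvant nodes as controls. TRBV1 differed by 0.05 on the log2 scale between heart extract and adjuvant nodes (SE 0.0394, 95% interval −0.03 to 0.14, edgeR adjusted p = 0.641), where 9.09% of segments passed, 4.55% in each direction. Myosin against adjuvant gave 0.02 (SE 0.0446, edgeR adjusted p = 0.974), with 0% of segments passing, 2 at an unadjusted p under 0.05 and 0 by DESeq2. Both antigens together gave 0.04 (edgeR adjusted p = 0.896), with 9.09% passing, 4.55% in each direction.

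TRBV1 was higher in sham than in adjuvant nodes by 0.12 on the log2 scale, a ratio of 1.08 (SE 0.0365, 95% interval 0.04 to 0.20, edgeR adjusted p = 0.0220). The ranges overlapped, since the lowest sham node held 8.18% and the highest adjuvant node 8.21%. In this comparison 45.5% of the 22 segments passed, 22.7% upward and 22.7% downward, and the median of all segments was itself 0.11, so TRBV1 lay 0.01 above it. Of the calls over all segments, 50% were upward, and 33.3% were with TMM scaling. With TMM scaling the TRBV1 difference was 0.06 (adjusted p = 0.268), with DESeq2 0.08 (adjusted p = 0.227), and when distinct entries replaced reads 0.01 (adjusted p = 0.956). The call was also lost without sham node 1 (adjusted p = 0.0592), sham node 2 (0.0547) or adjuvant node 2 (0.0551), and when only these 2 groups were fitted (0.0637). Surgery, site and adjuvant change together between these groups and cannot be told apart.

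The MI nodes, which differ from the adjuvant nodes in the same ways and by the infarct, were compared with them after the order of the means had been seen. TRBV1 was higher in MI nodes by 0.16 on the log2 scale, a ratio of 1.12 (SE 0.0393, 95% interval 0.08 to 0.25, edgeR adjusted p = 0.00526), and every MI node lay above every adjuvant node. In this comparison 22.7% of segments passed, 9.09% upward, and the median of all segments was 0.07. The call held without any single library (adjusted p from 0.00466 to 0.0311). It was lost with TMM scaling (0.14, adjusted p = 0.0593), with DESeq2 (0.14, adjusted p = 0.0631) and with distinct entries (0.04, adjusted p = 0.657).

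Split by J segment, mostly pairs of the TRBJ2 cluster passed. Of the 11 TRBV1-TRBJ pairs, 6 were higher in sham than in adjuvant nodes as shares of library reads and none was lower by the same test, where 28.7% of all 240 pairs passed, 16.7% upward and 12.1% downward. The median log2 fold change was 0.26 over the 11 TRBV1 pairs and 0.14 over all 240. Of the 6 TRBV1 pairs of the TRBJ2 cluster, 5 passed upward, and their median was 0.34. Of the 125 TRBJ2 pairs of the other segments, 29 (23.2%) passed upward, and their median was 0.22. These 125 include pairs of segments with far fewer reads than TRBV1, so the shares that passed are not like for like. Of the 5 TRBV1 pairs of the TRBJ1 cluster, 1 passed upward, and of the 104 TRBJ1 pairs of other segments 5 passed upward and 27 downward.

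TRBV1 with TRBJ2-2 took 0.437%, 0.514%, 0.485% and 0.525% of reads in the sham nodes and 0.346%, 0.376%, 0.371% and 0.414% in the adjuvant nodes. All 4 sham nodes were above all 4 adjuvant nodes, and the difference was 0.38 on the log2 scale (SE 0.0727, edgeR adjusted p = 0.00306). TRBV1 with TRBJ2-5 took 0.718%, 0.831%, 0.668% and 0.731% against 0.516%, 0.532%, 0.636% and 0.586%. The groups again did not overlap, and the log2 difference was 0.38 (SE 0.0765, edgeR adjusted p = 0.00371). TRBV1 with TRBJ2-4 took 0.817%, 0.842%, 0.803% and 1.03% against 0.649%, 0.595%, 0.716% and 0.712%. Sham node 4 was highest for this pair, which differed by 0.39 (SE 0.0833, edgeR adjusted p = 0.00478). TRBV1 with TRBJ2-7 took 0.990%, 1.09%, 0.946% and 0.978% against 0.741%, 0.814%, 0.848% and 0.841%, a difference of 0.30 (SE 0.0666, edgeR adjusted p = 0.00512).

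The other pairs that passed, named after their values were seen, were TRBJ2-1 (0.26, adjusted p = 0.0104) and TRBJ1-5 (0.61, adjusted p = 0.0331). TRBJ1-5 is the rarest partner of TRBV1, at 0.115% to 0.170% of sham node reads and 0.0660% to 0.116% of adjuvant node reads, and these ranges overlapped. Its call was lost without sham node 1, 2 or 4 or adjuvant node 1 or 3 (adjusted p from 0.0570 to 0.0996). TRBV1 with TRBJ1-1 pointed the other way, at 1.40% of sham and 1.69% of adjuvant node reads (log2 fold change −0.27, SE 0.0998, adjusted p = 0.0533). It was called lower under 6 of the 16 settings tried, among them without sham node 1 (adjusted p = 0.0096) and without adjuvant node 2 (0.0294). TRBJ1-2 was called lower under 3, among them without sham node 2 (0.0493). The scale mattered for the direction. TMM factors lowered the median of all pairs by 0.13, from 0.14 to 0.01, and moved the share of calls that were upward from 58.0% to 34.5%. TRBJ2-2, TRBJ2-4 and TRBJ2-5 were called higher under all 16 settings tried, the reported one included. With TMM, TRBJ2-7 (adjusted p = 0.0829), TRBJ2-1 (0.188) and TRBJ1-5 (0.0772) were no longer called, and TRBJ1-1 (−0.41, adjusted p = 0.0119) and TRBJ1-2 (−0.32, adjusted p = 0.00635) were called lower, which left 3 pairs higher and 2 lower. With DESeq2, TRBJ1-1 (−0.36, adjusted p = 0.0098) and TRBJ1-2 (−0.27, adjusted p = 0.0103) were called lower and TRBJ2-1 (0.18, adjusted p = 0.0582) was not called, which left 5 higher and 2 lower.

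**Figure D2:**
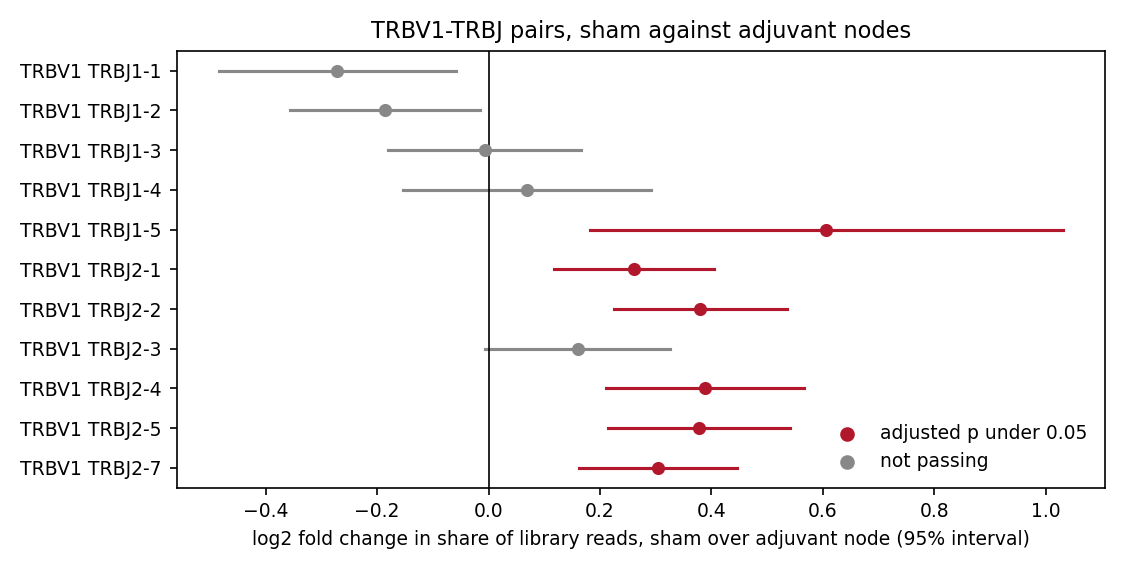
Log2 fold change of each TRBV1-TRBJ pair as a share of library reads, sham (n = 4) over adjuvant nodes (n = 4), with the 95% interval of the edgeR fit; red marks an adjusted p under 0.05. The red pairs are TRBJ1-5 and the TRBJ2 pairs other than TRBJ2-3, and they lie between 0.26 and 0.61.

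As a share of TRBV1 reads, the TRBJ2 cluster took 55.4% ± 3.54 of TRBV1 reads in sham nodes and 48.7% ± 1.76 in adjuvant nodes (SD, n = 4 each, exact two-sided permutation p = 0.0571, 0.286 after Benjamini-Hochberg adjustment over 5 comparisons). It took 60.8% and 54.8% of the reads of the other segments (exact permutation p = 0.0286). The TRBV1 difference was larger by 0.717 percentage points, which did not pass (exact permutation p = 0.514), so no test showed the shift to be particular to TRBV1. This comparison of clusters was added after the data had been seen.

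In the other comparisons between nodes, 0 of the 11 TRBV1 pairs passed by edgeR. For MI against sham nodes the background was 0% of 240 pairs, 1 TRBV1 pair reached an unadjusted p under 0.05, and by DESeq2 0 were called. That pair was TRBJ1-2, at 0.370% of MI and 0.311% of sham node reads (log2 fold change 0.25, SE 0.0860, adjusted p = 0.992), and TRBJ1-4 was next (0.16, adjusted p = 0.992). For heart extract against adjuvant nodes the background was 0%, 1 TRBV1 pair reached an unadjusted p under 0.05, and by DESeq2 0 were called. TRBJ2-7 was at 0.938% and 0.811% of reads (0.21, SE 0.0716, adjusted p = 0.304), and TRBJ2-5 at 0.627% and 0.568% (0.14, adjusted p = 0.573). For myosin against adjuvant nodes the background was 0%, 0 TRBV1 pairs reached an unadjusted p under 0.05, and by DESeq2 0 were called. Its first pairs were TRBJ2-5 (0.14) and TRBJ2-2 (0.11), each with an adjusted p of 0.980. For both antigens together the background was 0%, 1 TRBV1 pair reached an unadjusted p under 0.05, and by DESeq2 0 were called, with TRBJ2-7 (0.16, adjusted p = 0.384) and TRBJ2-5 (0.14, adjusted p = 0.503) first.

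TRBV1 was joined to a set of J segments that differed from that of the other segments in the same libraries. Within each node, the share of TRBV1 reads with a TRBJ was compared with the share of all other reads with it, by an exact two-sided sign-change permutation over the 16 nodes with Benjamini-Hochberg adjustment over the 11 TRBJ segments. All 11 TRBJ segments passed. With distinct entries in place of reads, TRBJ1-3 (−0.196 points, exact adjusted p = 0.0541) and TRBJ2-2 did not. This is a common outcome, since 80.7% of the same tests passed for the 16 other segments with a mean share of at least 0.1%, and 3 of these 17 segments had all 11. The summed absolute difference of TRBV1, 16.9 percentage points, ranked 10 of 17 and lay near the median of 17.6.

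TRBJ1-1 was the most used partner, at 18.6% ± 2.43 of TRBV1 reads and 14.5% ± 1.36 of other reads. The difference of 4.16 points had the same sign in 16 of 16 nodes (exact adjusted p = 4.8e-05, where the smallest raw p possible is 3.05e-05). Adjuvant node 1 had the highest TRBV1 value, 24.3%, and sham node 4 the lowest, 14.5%. TRBJ1-4 followed, at 16.1% ± 1.31 against 12.6% ± 0.915, a difference of 3.52 points in 16 of 16 nodes (exact adjusted p = 4.8e-05). TRBJ2-4 was higher by 0.760 points, also in 16 of 16 (exact adjusted p = 4.8e-05).

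On the other side, TRBJ2-5 took 7.82% ± 0.701 of TRBV1 reads and 9.94% ± 0.607 of other reads. The mean difference was −2.12 points, and those of TRBJ2-1 and TRBJ2-7 were −1.66 and −1.34 points, each with the same sign in 16 of 16 nodes (exact adjusted p = 4.8e-05). The smallest difference was that of TRBJ2-2, −0.266 points in 12 of 16 nodes (exact adjusted p = 0.0213). With distinct entries in place of reads TRBJ2-2 turned to 0.281 points (exact adjusted p = 0.110). It did not pass in mediastinal nodes alone (−0.311, exact adjusted p = 0.156) or axillary nodes alone (−0.231, exact adjusted p = 0.117).

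**Figure D3:**
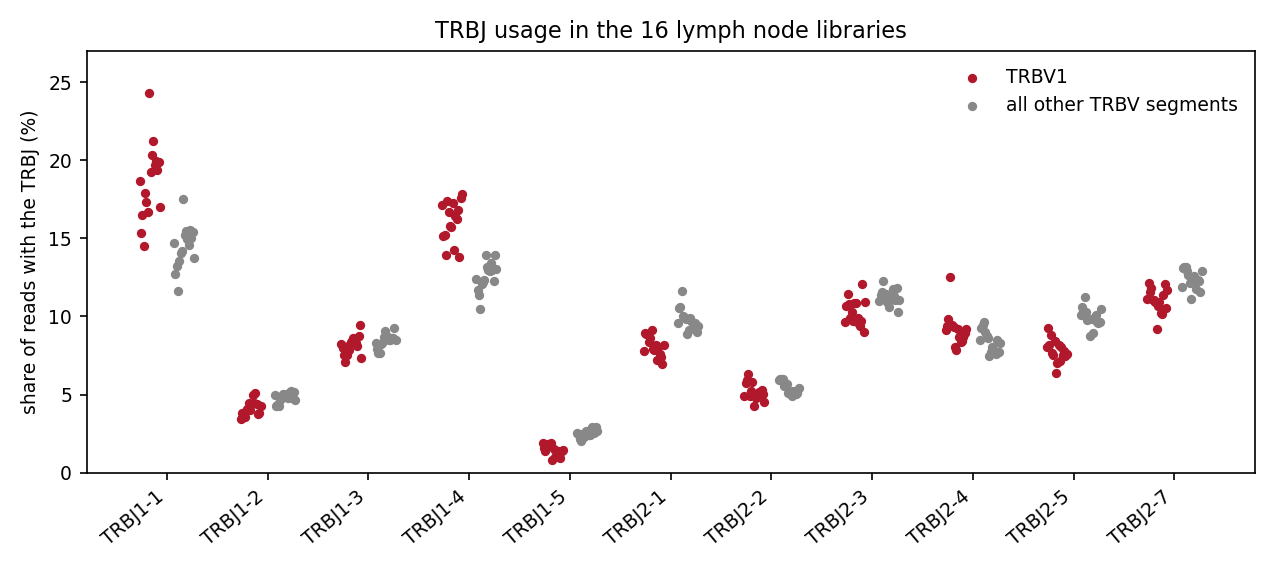
Share of TRBV1 reads (red) and of all other reads (grey) that carried each TRBJ segment, in percent, with 1 point per node library (n = 16). TRBJ1-1 and TRBJ1-4 stand higher for TRBV1, at means of 18.6% and 16.1%, and TRBJ2-5 stands lower at 7.82%.

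The hearts did not keep this order. TRBJ1-1 took 0.00353%, 4.19% and 16.1% of TRBV1 reads in hearts 1, 2 and 3, whereas in the other segments of the same hearts it took 12.6%, 15.3% and 10.6%. In heart 1 these were 6 reads in 2 entries. TRBJ1-5 had 0 TRBV1 reads in heart 1, which allows up to 0.00176% of its TRBV1 reads, and 0.900% and 1.09% in the others. TRBJ1-4 took 24.6%, 10.1% and 18.8%. Single CDR3s made up much of such values: the largest entry held 43.6% of the TRBV1 TRBJ1-4 reads of heart 1 and 99.4% of the TRBV1 TRBJ2-4 reads of heart 3.

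The start of the CDR3 carried the germline mark of the segment. In the nodes 99.8% of TRBV1 reads had a CDR3 that began with threonine and cysteine (range 99.5% to 99.9%, n = 16), and no read of any other segment began so, in nodes or hearts. The method that named V segments is not given in the sources used here. It may have used these bases. The start TCSA was kept in 73.5% ± 1.01 of TRBV1 node reads and in 72.4% ± 6.14 of TRBV1 heart reads (SD, n = 3). At printed position 4, alanine held 73.8% of TRBV1 node reads and glycine 11.2%. Glycine held 18.7% ± 2.59 there in the hearts, with a lowest heart of 15.7%, and this difference was not tested. Single CDR3s with glycine there made up much of it in hearts 1 and 3. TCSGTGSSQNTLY held 9.10% of the TRBV1 reads of heart 1, and TCRGTGGSERLF held 6.36% of those of heart 3. At position 5, aspartate and glycine held 23.9% and 23.1% of TRBV1 node reads, so TCSAD opened 21.3% of them. A second cysteine after the germline one was found in 0.0295% of TRBV1 node reads, and any cysteine in the printed CDR3 in 0.0867% of reads of the other segments.

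TRBV1 CDR3s were slightly longer, more acidic in the centre and poorer in hydrophobic pairs than those of the other segments. Mean length over reads was 12.2 residues against 12.1, a difference of 0.140 with the same sign in 16 of 16 nodes (exact sign-change permutation, adjusted over 3 features, p = 4.6e-05). Of 17 segments TRBV1 had the fourth longest mean. Lengths of 13 and 14 residues held 27.4% and 12.0% of TRBV1 reads against 25.1% and 9.81% of other reads, and 11 residues 17.2% against 19.7%. The net charge of the centre counts lysine and arginine as plus 1 and aspartate and glutamate as minus 1, after the 4 residues at each end are dropped. It was −0.122 for TRBV1 and −0.0451 for the rest, lower in 16 of 16 nodes (exact adjusted p = 4.6e-05), rank 12 of 17 from the most positive. More acidic were TRBV16 (−0.793), TRBV12-2 (−0.419), TRBV3 (−0.418), TRBV2 (−0.341) and TRBV5 (−0.323). The centre so defined starts at printed position 5, where aspartate held 23.9% of TRBV1 node reads. How much of the charge difference comes from the germline end of the segment was not tested.

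A hydrophobic pair at CDR3 positions 6 and 7, counted from the conserved cysteine as 1, stood in 0.697% ± 0.134 of TRBV1 reads and 0.896% ± 0.0935 of other reads. It was lower for TRBV1 in 15 of 16 nodes (exact adjusted p = 3.1e-04), and TRBV1 ranked 15 of 17 from the highest. In the 7 mediastinal nodes alone the difference of −0.182 points did not pass (exact adjusted p = 0.0625). CDR3 position 6 is printed position 5, where aspartate held 23.9% of TRBV1 node reads, and the germline part of this difference was not tested.

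**Figure D4:**
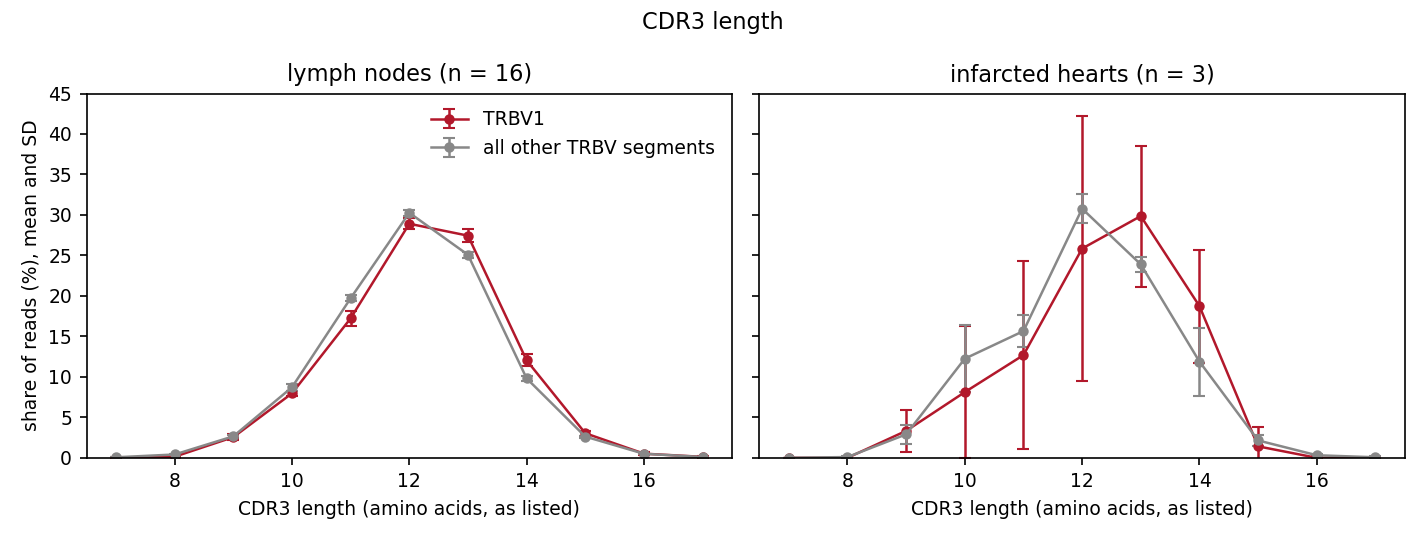
Share of reads by CDR3 length in amino acids as listed, mean and SD over libraries, for TRBV1 (red) and all other segments (grey) in the nodes (left) and the hearts (right). In nodes TRBV1 lies above the rest at 13 and 14 residues, 27.4% against 25.1% and 12.0% against 9.81%; the 3 hearts vary more.

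None of the 3 features passed between groups within TRBV1 after adjustment, but few libraries limit these tests. For myosin against adjuvant nodes the smallest possible exact permutation p was 0.0667, so no feature could pass. The smallest value was that of the hydrophobic pair, 0.761% ± 0.0825 in heart extract nodes (n = 3) and 0.612% ± 0.0473 in adjuvant nodes (n = 4). Here the exact two-sided permutation gave 0.0286, or 0.0857 once adjusted. That is the smallest p possible with 3 against 4 libraries, so a single feature could not pass. The lowest heart extract node held 0.701% and the highest adjuvant node 0.659%, so these groups did not overlap. In the hearts the net charge of TRBV1 centres was −0.404, −0.311 and −0.156, against a mean of −0.128 ± 0.0137 in MI nodes (n = 3). Every heart lay below every MI node. With 3 against 3 the exact permutation p of 0.100 is the smallest possible, and the adjusted value was 0.300. In the same hearts the other segments had −0.0316, 0.0523 and −0.0921.

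Most TRBV1 CDR3s were private. Of 94822 distinct TRBV1 CDR3s in the nodes, 79.2% were listed in 1 node, beside 80.8% of those of the other segments of at least 0.1%. In 8 or more nodes were 1.2%, beside 0.999%. The 4 printed above were in all 16, which is 0.00422% of TRBV1 CDR3s beside 0.00673% of the others. They were short, with a mean of 11 residues against 12.5 over all distinct TRBV1 node CDR3s, and each kept TCSA, as did 65.3% of the distinct TRBV1 node CDR3s.

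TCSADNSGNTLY held 0.123% ± 0.0510 of TRBV1 reads over the 16 nodes, from 0.050% to 0.210%. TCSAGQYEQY held 0.120% ± 0.0446 and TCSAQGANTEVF 0.0992% ± 0.0629. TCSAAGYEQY was the rarest at 0.0367% ± 0.0301. Together the 4 took between 0.193% of TRBV1 reads in MI node 3 and 0.556% in adjuvant node 3, and the ranges of all 5 node groups overlapped.

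The most abundant TRBV1 CDR3 of a node held from 0.222% to 1.02% of its TRBV1 reads. The highest was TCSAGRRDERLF in heart extract node 3, at 1.02% (6673 reads), and it was listed in no other library. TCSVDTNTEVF led heart extract node 1 at 0.929%, and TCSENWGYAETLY led adjuvant node 2 at 0.728%, each listed in that library only, as was the leader of adjuvant node 3, a TRBJ2-1 CDR3 of 15 residues at 0.854%. Private leaders were also found in mediastinal nodes: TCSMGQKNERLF in MI node 1 (0.416%) and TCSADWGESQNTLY in MI node 2 (0.300%) were listed in no other library. The leader of MI node 3, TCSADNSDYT (0.570%), was listed in 5 nodes. The leaders of the 4 sham nodes were listed in 4 to 11 nodes, with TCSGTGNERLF in sham node 1 (0.654%) the most abundant of them. Other leaders were widely shared. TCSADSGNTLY led both adjuvant node 4 (0.336%) and myosin node 1 (0.330%) and was listed in 14 nodes, and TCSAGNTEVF, the leader of myosin node 2 at 0.222%, was listed in 15. None of the node leaders was listed in a heart.

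Diversity of TRBV1 was compared after drawing reads to an equal number. At 681597 reads, MI nodes had 16884, 20881 and 11076 distinct TRBV1 entries and sham nodes 8706, 8552, 17304 and 4520. Sham node 3 lay among the MI nodes, and the difference did not pass (exact two-sided permutation p = 0.171, adjusted 0.429). The top 10 entries held 2.17% ± 0.449 in MI nodes and 2.60% ± 0.830 in sham nodes (exact permutation p = 0.457). Heart extract nodes had 5028 ± 1916 distinct entries and adjuvant nodes 5559 ± 1865 at 622482 reads (exact permutation p = 0.714). Myosin nodes had 7574 ± 317 against 5555 ± 1863 at 604404 reads (n = 2 and 4, exact permutation p = 0.20, where 0.0667 is the smallest possible). Sham nodes had 9746 ± 5381 against 5557 ± 1863 at 622482 reads (n = 4 each, exact permutation p = 0.143).

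In the heart libraries TRBV1 reads lay in few entries. At 170125 reads the hearts had 261, 446 and 429 distinct TRBV1 entries and the MI nodes 15682, 19162 and 10087. The 10 most abundant held 65.8%, 47.7% and 51.0% of TRBV1 reads in the hearts and 2.15%, 1.70% and 2.65% in the MI nodes. The groups did not overlap (exact permutation p = 0.100, the smallest of 20 splits). The heart libraries started from 5000 cells and the node libraries from 500000, so cell number and tissue cannot be told apart. At 126230 reads the top 10 entries of a heart held 54.8% ± 9.70 of TRBV1 reads (SD, n = 3). Of the other 4 segments drawn to this depth, TRBV14 (86.7% ± 9.79) and TRBV4 (63.1% ± 6.67) had higher means, and TRBV19 (40.03% ± 5.51) and TRBV5 (37.7% ± 5.62) lower ones, so TRBV1 lay in the middle.

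The read share of TRBV1 in the hearts, 7.01%, 8.83% and 7.67%, was compared with the MI nodes in a separate edgeR fit of these 6 libraries. The log2 fold change was −0.18 (SE 0.143, 95% interval −0.46 to 0.11, adjusted p = 0.369), where 27.3% of segments passed, 4.55% upward and 22.7% downward, and the median of all segments was −0.21. The sign depended on the measure. With TMM scaling, which raised the median of all segments by 0.18, it was 0.03 (adjusted p = 0.959), and without the 100 most abundant CDR3s of each library 0.14 (adjusted p = 0.579). Without heart 2, whose TRBV1 share was the highest, it was −0.27 and passed (edgeR adjusted p = 0.0180).

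By entries TRBV1 was higher in the hearts. It made up 8.27%, 11.1% and 9.07% of heart entries and 6.67%, 7.16% and 6.20% of MI node entries, a log2 fold change of 0.51 (edgeR on distinct entries, adjusted p = 8.8e-04). How many of the other segments passed in this fit is not given here, so this call has no background to be read against. Hearts had 3156 to 5247 entries over all segments and MI nodes 179014 to 291639. The part of list length in the difference was not tested. In 16 of 16 nodes the TRBV1 share of entries was below its share of reads, and in 3 of 3 hearts it was above. The same counts for the other segments are not given here. The difference between hearts and MI nodes varied with the fewest reads an entry had to have. Among entries of at least 10 reads TRBV1 made up 8.35% ± 1.33 in hearts and 9.04% ± 1.05 in MI nodes, and among those of at least 100 reads 6.19% ± 0.192 and 8.58% ± 1.48 (SD, n = 3 each). Of at least 1000 reads they were 8.74% ± 0.368 and 5.88% ± 1.10, again higher in the hearts, where an MI node had only 6 to 14 TRBV1 entries. Sequencing errors among the entries of few reads were not tested.

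Of the 11 TRBV1-TRBJ pairs, 0 passed between hearts and MI nodes by edgeR or DESeq2, and 0 had an unadjusted p under 0.05 by edgeR, where 21.2% of 236 pairs passed, 0.847% upward and 20.3% downward. Upward calls were 4% of all calls, and 23.8% with DESeq2. The spread over hearts was wide. TRBJ2-2 took 0.598%, 1.69% and 0.519% of heart reads and 0.446%, 0.467% and 0.497% of MI node reads (0.99, SE 0.543, adjusted p = 0.310). Every heart lay above every MI node for this pair. TRBJ2-7 took 0.783%, 0.348% and 0.836% against 0.998%, 0.990% and 0.941% (−0.57, SE 0.416, adjusted p = 0.470), and here every heart lay below. In all, 4 of the 11 TRBV1 pairs did not overlap, with TRBJ1-1 and TRBJ1-5 also lower in every heart. How many of the 236 pairs did not overlap is not given here. Without heart 1, TRBJ1-5 was called lower (−0.97, adjusted p = 0.0433). Without heart 2, TRBJ2-1 was called higher (0.80, adjusted p = 0.0261) and TRBJ2-3 lower (−1.95, adjusted p = 0.0200). TRBV1 with TRBJ2-3 took 0.176%, 1.91% and 0.284% of reads in hearts 1, 2 and 3. How many of all pairs were called in these fits without 1 heart is not given here, so these calls have no background.

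Almost no CDR3 was shared between hearts, for TRBV1 or for the other segments. Of the 1237 distinct TRBV1 CDR3s in the hearts, 0 were in 2 or more hearts, which by counting alone allows up to 0.243%. Of the 11650 of the other segments 20 were (0.172%). This lies below that limit, so the 0 does not set TRBV1 apart. The leading TRBV1 CDR3 of heart 1, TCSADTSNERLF, held 10.7% of its TRBV1 reads (Wilson 95% interval 10.6% to 10.9%). It was listed in 7 nodes at no more than 58 reads. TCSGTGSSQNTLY held 9.10% (8.97% to 9.24%) and had 1458 reads in MI node 1, beside 83 in myosin node 1 and 2 in adjuvant node 1. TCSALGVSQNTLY held 8.28% (8.15% to 8.42%), with 50 reads in MI node 1 and 241 in sham node 2.

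In heart 2, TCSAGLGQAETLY held 7.09% of TRBV1 reads (7.01% to 7.17%) and was listed in no node. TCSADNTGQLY held 5.80% (5.73% to 5.88%) and was listed in 9 nodes, all 3 MI nodes among them. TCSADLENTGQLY held 5.62% (5.54% to 5.69%) and was listed in MI node 2 only, at 11 reads. In heart 3, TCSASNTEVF held 7.18% (7.10% to 7.26%) and was listed in 7 nodes, with 503 reads in adjuvant node 4 as the highest. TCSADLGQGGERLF held 6.49% (6.41% to 6.57%) and was listed in MI node 3 only, at 189 reads. TCRGTGGSERLF, which lacks the germline serine, held 6.36% (6.28% to 6.43%) and was in no node. The 2 of these CDR3s that were listed in a single node were both in the MI node with the heart's number.

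Much of the TRBV1 read mass of the hearts had CDR3s that the nodes also listed with TRBV1. In the MI node of the same number were 60.5%, 52.3% and 38.6% of the TRBV1 reads of hearts 1, 2 and 3 (mean 50.5% ± 11.1, n = 3). Each of these was the highest value of that heart over the 16 nodes. For the other segments the values were 38.0%, 43.8% and 43.9%, each also the highest of that heart over the 16 nodes. TRBV1 lay above the rest in hearts 1 and 2 and below it in heart 3. The labels do not say that a number marks the same mouse. In entries, 28 of 261, 44 of 500 and 44 of 476 TRBV1 entries were listed there. By entries MI node 2, the largest list, held more of heart 1 (30) and of heart 3 (49) than the node of the same number did.

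Heart 1 stood furthest apart: its highest value in any other node was 26.7%, in sham node 3. The gap was narrower in heart 2, where sham node 3 listed 42.1%, MI node 1 38.6%, MI node 3 37.2% and adjuvant node 2 32.3%. It was also narrower in heart 3, where MI node 2 listed 32.1%. Heart extract nodes listed between 1.48% and 16.4% of TRBV1 reads over the 3 hearts. Any node at all listed 77.8%, 69.0% and 69.3%, and for the other segments 59.2%, 65.1% and 70.9%. The nodes listed from 3615 TRBV1 entries in heart extract node 3 to 20894 in MI node 2, and the part of list length in these percentages was not tested.

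**Figure D5:**
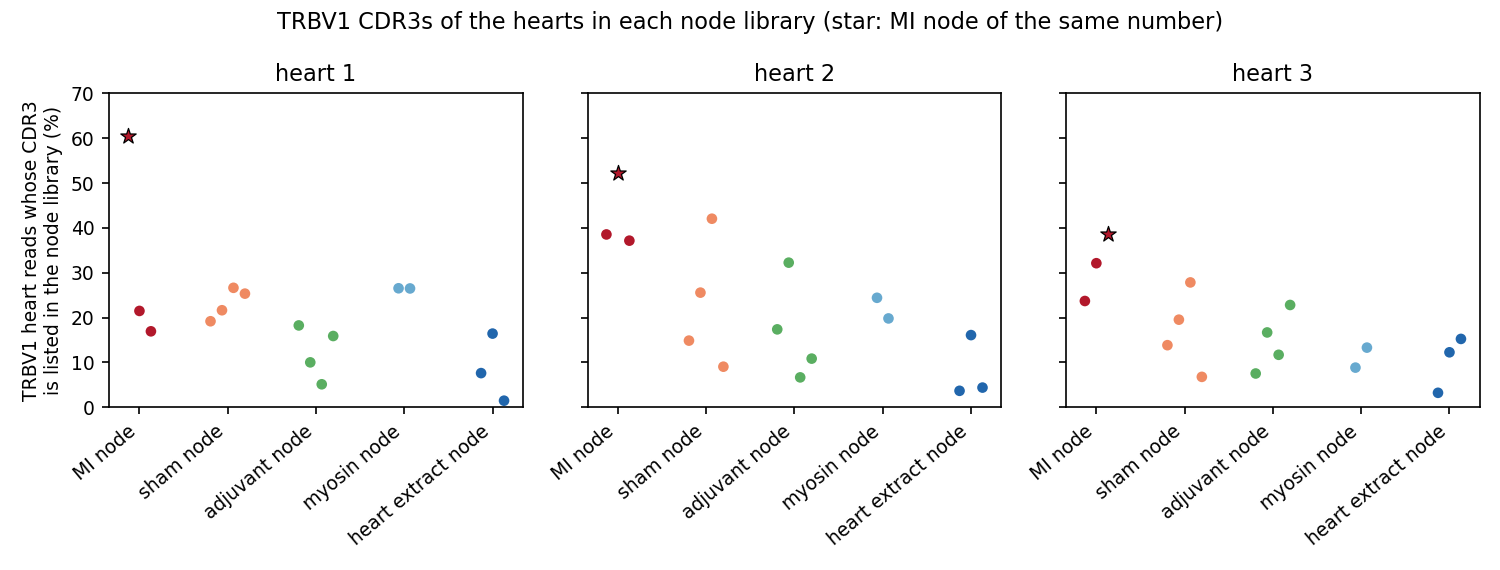
Percentage of the TRBV1 reads of each heart whose CDR3 is listed with TRBV1 in a given node library, with 1 point per node and a star for the MI node that has the heart's number. The stars, at 60.5%, 52.3% and 38.6%, are the highest points of their panels.

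Across the 16 nodes, the segments whose log2 read share varied most like that of TRBV1 were TRBV16 (Pearson r 0.61), TRBV29 (0.56) and TRBV19 (0.43), and the least like were TRBV4 (−0.77) and TRBV2 (−0.63). These correlations are descriptions: all shares of a library sum to 100%, and the libraries fall into groups. With group means removed r was −0.37 for TRBV16, −0.03 for TRBV29, 0.23 for TRBV19, −0.24 for TRBV4 and 0.11 for TRBV2. Without MI node 1 and sham node 2, the libraries with the TRBV1 share farthest from the median, r for TRBV16 was 0.48.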

How the data were processed

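The deposited tables give, per the labels 1 library each, unnormalised read counts per CDR3 (in amino acids), TRBV and TRBJ segment, with no count below 2. Per the labels' protocols, TRB transcripts were amplified by multiplex PCR, and equal masses of the libraries were pooled and sequenced on an Illumina HiSeq. Which aligner, error correction and segment reference were used is not given in the sources used here. Molecular identifiers are not mentioned.

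Reads were summed per segment and per TRBV-TRBJ pair (pairs of at least 100 reads). Shares were tested with edgeR 4.0.16 in R 4.3.3 (glmQLFit, robust, legacy settings), library total as offset, Benjamini-Hochberg threshold 0.05. All 16 nodes shared a fit, and hearts and MI nodes another. The scripts were checked on simulated data. DESeq2 1.42.0, TMM factors, other filters, distinct entries and leaving out libraries were alternatives. Features and diversity used exact permutations in Python 3.11.15, and 95% intervals of single shares are Wilson's. The gene name and neighbours of TRBV1 come from RefSeq; coordinates are left out because no build is named in the tables. TRBV1, its comparisons and the naming rule were chosen with earlier results of these data known. Named were the TRBV1-TRBJ pairs that passed, up to 4 by smallest p or else the first 2; the 3 TRBJ segments with the largest difference each way; the leading CDR3 of a library, the leading 3 of each heart, and CDR3s in all 16 nodes or in 2 hearts; and the 3 segments most and 2 least like TRBV1.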

Additional observations from a re-analysis of the deposited data

Results flagged for a closer look

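In groups of 4 libraries, 22 measures of TRBV1 were examined for a library far from the others, 44 groups in all, of which chance would set apart about 1 in 20. One did: TRBJ2-1 took 7.781% of TRBV1 reads in sham node 1 and 8.86% to 8.92% in the other 3 sham nodes, so the gap was 0.952 of the whole range.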

How the results depend on the processing

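Of 971 recomputed values over 71 results, 934 kept their direction and side of the threshold, or, where no test was made, stayed within the spread of the libraries or within 1.5 times for a count. Many of these results had not passed as reported, and with few libraries some could not pass. The count therefore does not measure how stable the calls were. For sham against adjuvant nodes the TRBV1 difference was no longer past the threshold with TMM (0.06175, adjusted p = 0.268), DESeq2 (0.08262, 0.227), distinct entries (0.007661, 0.956) or only the groups compared (0.1176, 0.0637), and leaving out 1 library gave 0.09582 to 0.1403 (adjusted p 0.0135 to 0.0592), with the call lost without sham node 1 (0.0592), sham node 2 (0.0547) or adjuvant node 2 (0.0551). Of its pairs, 6 higher and 0 lower as reported, 3 to 6 were called higher and 0 to 2 lower over the settings, with 3 higher and 2 lower under TMM. Myosin against adjuvant turned to −0.008392 with TMM and −0.03895 with distinct entries. Hearts against MI nodes turned to 0.02554 with TMM, 0.5071 with distinct entries and 0.1441 without the 100 most abundant CDR3s, and gave −0.2724 to −0.1037 with 1 library left out; there 0 to 2 TRBV1 pairs were called, and TRBJ2-7 turned to 0.3435 (adjusted p = 0.380) without the abundant CDR3s. TRBJ2-2 usage turned to 0.2812 with distinct entries. Distinct TRBV1 entries, heart extract against adjuvant, turned from −531 to 178 without heart extract node 3 and 120.3 without adjuvant node 4, and ranged from −1619 to 178 with 1 library left out. The likeness to TRBV16 moved to 0.4826. The cause was not tested. Over all segments, MI against adjuvant calls went from 5 to 9 with DESeq2 and from 5 to 3 with TMM, and heart against MI pair calls from 50 to 80 with DESeq2. Entries of few reads limit what can be read from entry shares, and 3 hearts limit every heart comparison.

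Sample numbers were not used to pair the libraries, because no set of same-numbered libraries had all correlations of deviations over 0.1. Over CDR3 entries no correlation reached 0.1, same-numbered or not, so this rule cannot show that libraries were unpaired. Over CDR3 entries, same-numbered hearts and MI nodes had r of 0.0106 to 0.0168 and other numbers −0.0106 to −4.7e-04, so each heart was closest to its own number, a hint from the data and not the design. With the replicate block the sham against adjuvant difference was 0.1172 (adjusted p = 0.0310) with the same number of pairs, 6, called higher and TRBJ1-1 also called lower (−0.28, adjusted p = 0.0345), hearts against MI nodes gave −0.1841 (adjusted p = 0.318), and the block changed no call of TRBV1 itself.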
